A study of Mus musculus with 30 samples.

Results

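Late lung metastases of 4T1-tdTomato cells were compared with cells of the same line taken from the lung early after injection, both in NSG mice. The comparison rests on 10 of the 30 RNA-seq libraries of the series: 5 from macro-mets and 5 from the group the labels call DTC. The 4T1 line was derived from a mammary carcinoma of a BALB/c mouse, and its tdTomato derivative makes a red fluorescent protein. NSG mice lack T, B and NK cells. In both groups 500000 cells were injected in the tail vein of female mice, and live CD45-negative, tdTomato-positive cells were sorted from lung. The DTC libraries were taken on day 7. Of the macro-met libraries 4 were taken on day 19 and 1 (replicate 5) on day 20. Host strain, route, organ, cell number and sorting gate were shared by all 10 libraries, so the groups differ in day and in stage, which cannot be told apart. The labels name no separate animals, and p-values therefore measure the spread between libraries. For genes this spread was estimated within the groups of all 30 libraries. The title numbers (35 and 34 for DTC, 98 and 100 for macro-mets) do not overlap between the groups, so an effect of what they number cannot be told apart from stage.

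Several programmes bear on cells that grow from a seeded state into a visible metastasis. Cells short of oxygen stabilise hypoxia-inducible factors, which bind a short core motif and turn on glycolytic enzymes, angiogenic peptides and mitophagy receptors. Glucocorticoids act through the receptor encoded by Nr3c1 and induce genes such as Fkbp5, Tsc22d3 and Per1, while Fas is a death receptor through which lymphocytes can kill a target cell. Interferons induce antiviral genes, and interferon gamma also raises antigen presentation on MHC class I.

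The 10 libraries held 34.6 to 61.0 M counts each, and 17774 genes passed the filter on low counts. Principal component 1 (54.4% of variance) separated the groups, and component 2 (20.1%) separated macro-met replicate 3 from the other libraries. That library correlated with its group at 0.936 to 0.939, against 0.977 to 0.987 within groups among the other 9 libraries, and had 18297 genes detected, against 19748 to 20396 in the other macro-mets and 21391 to 22187 in DTC. It also had a high sum over the skeletal muscle marker list, 382 CPM (counts scaled to library size) against 30.6 to 34.2 CPM in the other macro-mets. The highest macro-met value of the list member Ttn was 254 CPM. The members Tnnt3 and Tnni2 did not exceed 13.5 and 9.19 CPM in macro-mets, against up to 15.2 and 11.3 CPM in DTC. The source of this RNA was not tested. The carcinoma genes Krt8 and Krt18 (simple epithelial keratins) stood at 1627 to 3382 CPM and 1271 to 2199 CPM across the 10 libraries, and Ptprc, which encodes CD45, stood at 0.0369 to 1.69 CPM. Ptprc differed by -1.38 (adjusted p = 0.193), and by -2.95 without macro-met replicate 3 (adjusted p = 0.00830).

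Of the 17774 genes, 3778 (21.3%) were higher and 3987 (22.4%) lower in macro-mets at an adjusted p under 0.05, 43.7% in all. The 2 groups of libraries did not overlap for 37.7% of genes. Because the change is this broad, the count of each gene list below is read against 21.3% higher and 22.4% lower, and its median against 0.02, the median log2 fold change of all genes. Offsets for GC content and transcript length moved the split to 3005 higher and 4621 lower and the median of all genes by -0.16. On the deposited TPM values, 2765 genes were higher and 5047 lower. Many single values also moved with these offsets, and they are given beside a part of the genes below.

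**Figure D1:**
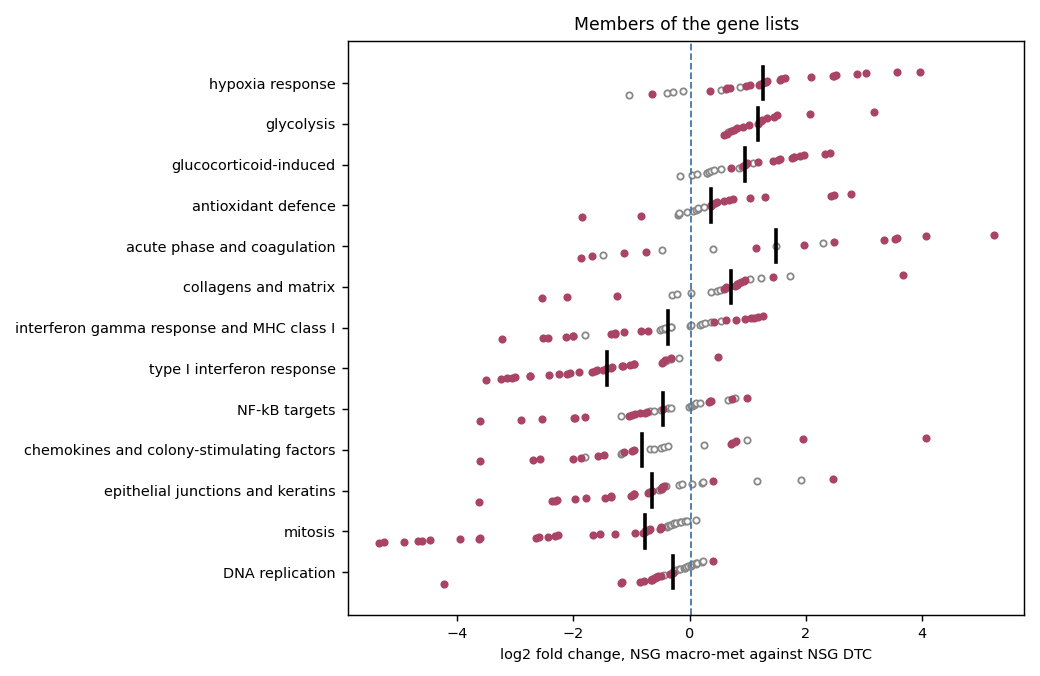
Each point is 1 tested member of a gene list, placed by its log2 fold change between NSG macro-mets and NSG DTC; filled points passed an adjusted p of 0.05, open points did not. The black bar is the list's median and the dashed line the median of all genes (0.02). Hypoxia, glycolysis and glucocorticoid-induced members lie mostly to the right of the line, and type I interferon and mitosis members to the left.

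The hypoxia response and glycolysis were the lists with the highest share of rises. Of 31 tested hypoxia genes 23 rose and 1 fell (median log2 fold change 1.26), and of 17 glycolysis genes 16 rose and none fell (median 1.17). With GC and length offsets 20 and 13 of them rose. The promoters of the hypoxia members described next are shown first, because they hold the core motif of the hypoxia-inducible factors. Each is a stretch upstream of the transcription start in RefSeq's GRCm38.p6 annotation, with ACGTG or GCGTG on either strand in capitals. The stretches lie at chr7:138909527-138909646 (minus strand) for Bnip3, chr11:54100750-54100869 (plus) for P4ha2, chr2:71873041-71873160 (plus) for Pdk1 and chr7:110627498-110627617 (plus) for Adm.
Bnip3: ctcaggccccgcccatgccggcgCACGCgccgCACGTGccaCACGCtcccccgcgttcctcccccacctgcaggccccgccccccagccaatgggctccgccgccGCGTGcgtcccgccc
P4ha2: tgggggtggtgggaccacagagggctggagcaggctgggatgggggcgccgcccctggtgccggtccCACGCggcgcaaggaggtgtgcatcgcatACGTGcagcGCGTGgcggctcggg
Pdk1: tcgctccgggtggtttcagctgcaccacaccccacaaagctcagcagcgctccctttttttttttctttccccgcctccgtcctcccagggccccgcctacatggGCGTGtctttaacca
Adm: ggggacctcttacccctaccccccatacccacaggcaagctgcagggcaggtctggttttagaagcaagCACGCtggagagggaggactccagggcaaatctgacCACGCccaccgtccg
The Bnip3 stretch holds 5 matches, of which 2 overlap, while P4ha2 holds 3, Adm 2 and Pdk1 1. The motif is common: it occurs in the window around the start of 64.2% of the 11767 tested genes with an entry in the promoter table, and of 14 of the 17 glycolysis genes (82.4%). For the hypoxia list 24 of 31 genes had an entry, under 80%, so its share is void. The 11767 genes are 66.4% of the 17732 symbols tested, and shares over all genes cover only that part.

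Bnip3, a receptor for mitophagy, was the hypoxia gene with the second largest rise. It stood at 5.37, 5.94, 7.93, 6.50 and 5.56 CPM in the 5 DTC libraries and at 38.0, 55.5, 66.2, 162 and 50.9 CPM in the macro-mets. The groups did not overlap, and macro-met replicate 4 lay far above the others (log2 fold change 3.57 ± 0.33 SE, adjusted p = 2.19e-09). Adm, which encodes the vasodilator peptide adrenomedullin, rose further, from 1.05 to 1.83 CPM in DTC to 10.5, 12.6, 45.9, 34.9 and 11.0 CPM (3.95 ± 0.40, adjusted p = 1.00e-08). Here replicates 3 and 4 were both high. Pdk1, the kinase that holds pyruvate out of the mitochondrial citric acid cycle, stood at 13.8 to 20.3 CPM in DTC and at 53.8 to 122 CPM in macro-mets (2.09 ± 0.20). P4ha2, a collagen prolyl hydroxylase, rose by 2.48 ± 0.22 and the adenylate kinase gene Ak4 by 3.03 ± 0.27. Other members did not pass: Ddit4, an inhibitor of mTORC1, differed by 0.54 ± 0.30 (adjusted p = 0.147) and stood at 953 CPM in macro-met replicate 3 against 355 to 457 CPM in the other 4. The clock repressor gene Bhlhe40 differed by -0.11 ± 0.19 (adjusted p = 0.676), and by -0.57 with offsets for coding base content, described below (adjusted p = 0.0122).

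Among glycolytic enzymes the tissue-restricted isoforms changed most. The enolase gene Eno2 stood at 2.00 to 3.43 CPM in DTC and at 13.8, 20.5, 25.4, 52.3 and 15.1 CPM in macro-mets (3.17 ± 0.37), and the aldolase gene Aldoc at 20.9 to 30.9 CPM and 84.0 to 146 CPM (2.07 ± 0.19). The abundant enzymes rose less. Gpi1, Tpi1 and Pfkl, which act at the isomerase and phosphofructokinase steps, rose by 1.32, 1.24 and 1.50 on the log2 scale, with no overlap between the groups. Macro-met replicate 4 was the highest library for each of these 5 enzymes as well as for Bnip3, Pdk1, P4ha2 and Ak4.

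**Figure D2:**
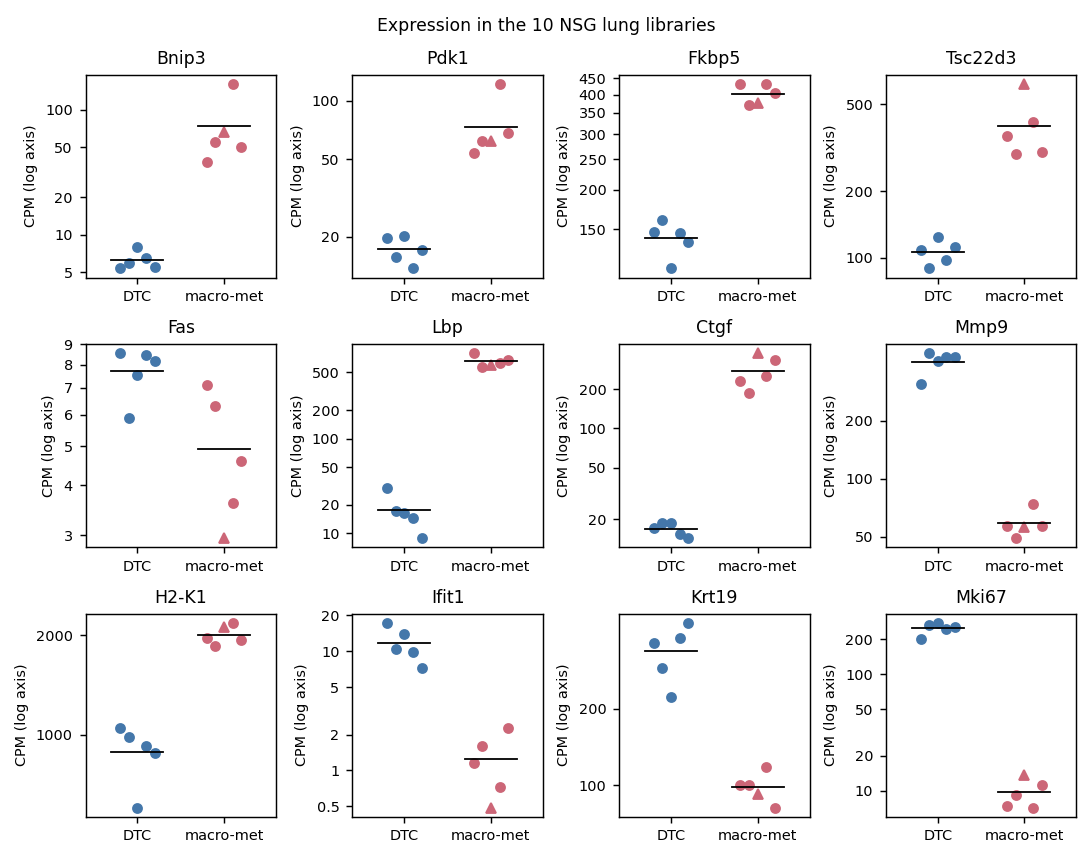
CPM (log axis) of 12 genes in each of the 5 DTC and 5 macro-met libraries; bars are group means and the triangle is macro-met replicate 3. The groups separate for every gene shown except Fas, whose macro-met values of 2.95 to 7.13 CPM overlap the DTC values of 5.87 to 8.54 CPM.

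Glucocorticoid-induced genes also rose more often than they fell. Of 28 tested members 15 rose and none fell (median 0.96), and with GC and length offsets 12 rose and 1 fell. Fkbp5, whose protein lowers the receptor's affinity for hormone, stood at 147, 161, 113, 147 and 137 CPM in DTC and at 432, 370, 376, 433 and 403 CPM in macro-mets. Every macro-met library lay above every DTC library, and the rise (1.51 ± 0.12, adjusted p = 1.98e-10) was 1.48 with the offsets. Tsc22d3, which encodes the anti-inflammatory protein GILZ, stood at 89.2 to 125 CPM and at 359, 295, 619, 414 and 302 CPM (1.91 ± 0.21, adjusted p = 3.29e-08). The thioredoxin inhibitor gene Txnip rose by 1.79 ± 0.26, the iron-binding secreted protein gene Lcn2 by 1.96 ± 0.25 and the survival gene Bcl2l1 by 1.43 ± 0.14. Per1, a clock gene, rose by 0.95 ± 0.22 (adjusted p = 8.91e-04), from 86.6 to 131 CPM to 112 to 351 CPM, with overlap between the groups. The difference was 0.29 with the offsets (adjusted p = 0.302). The phosphatase gene Dusp1 differed by 0.33 ± 0.29 (adjusted p = 0.378). The receptor gene itself, Nr3c1, moved the other way, from 41.0 to 60.1 CPM in DTC to 11.1 to 18.1 CPM in macro-mets (-1.71 ± 0.22, and -0.73 with the offsets).

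Fas was expressed at a low level, and its call depended on the setting. It stood at 8.54, 5.87, 7.55, 8.47 and 8.18 CPM in DTC and at 7.13, 6.30, 2.95, 3.61 and 4.61 CPM in macro-mets. The groups overlapped, and the difference of -0.65 ± 0.22 passed at an adjusted p of 0.0196. It was -0.20 with GC and length offsets (adjusted p = 0.482), -0.53 without macro-met replicate 3 (adjusted p = 0.0574), -0.57 without replicate 4 (adjusted p = 0.0529) and -0.50 between title numbers 98 and 35 alone (adjusted p = 0.170). Of the 18 tested genes of the death receptor pathway 3 rose and 9 fell, with the same counts under the offsets. The caspase inhibitor gene Xiap fell by 2.63 on the log2 scale (-0.94 with the offsets), while the TNF receptor gene Tnfrsf1a rose by 0.97 ± 0.10 (0.34 with the offsets). The initiator caspase gene Casp8 differed by -0.27 ± 0.12 (adjusted p = 0.0713), and by 0.31 with the coding offsets (adjusted p = 0.0341).

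Several of the named rises were of secreted proteins. Lbp, which encodes lipopolysaccharide-binding protein, had the largest rise among the genes named, at 29.8, 17.3, 16.6, 14.6 and 8.94 CPM in DTC and at 796, 570, 600, 623 and 684 CPM in macro-mets. The macro-met libraries lay close together, and the change was 5.23 ± 0.30 (adjusted p = 1.24e-12). The complement genes C4b and Masp1 rose too. C4b stood at 8.91 to 17.9 CPM and 107 to 151 CPM (3.43 ± 0.36), and Masp1, a protease of the lectin pathway, at 11.7 to 18.9 CPM and 105 to 143 CPM (3.08 ± 0.22). Of 17 tested acute phase and coagulation genes 8 rose and 4 fell. Saa3 and Saa2, serum amyloid genes that are close copies of each other and so are uncertain as single genes, rose by 4.07 ± 0.62 and 3.34 ± 0.56 from under 2 CPM. The tissue factor gene F3 fell by 1.67.

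Matrix genes rose in part. Ctgf, a matricellular protein and a known target of YAP, stood at 17.2, 18.6, 18.6, 15.5 and 14.4 CPM in DTC and at 231, 186, 378, 254 and 334 CPM in macro-mets (4.03 ± 0.33, adjusted p = 5.29e-10). Its relative Wisp2 rose by 3.46 ± 0.33 and the proteoglycan gene Prelp by 3.36 ± 0.44. Of 24 tested collagen and matrix genes 10 rose and 3 fell, and 7 rose without macro-met replicate 3. The falls were of Lama3 and Lamb3, chains of the epithelial laminin, and of Tnc, tenascin C: Lama3 changed by -2.53 and Tnc by -2.10. Proteases split. The gelatinase gene Mmp9 fell from 308, 447, 407, 428 and 426 CPM to 57.0, 49.1, 56.2, 73.4 and 57.1 CPM (-2.78 ± 0.26, adjusted p = 2.19e-09), while Mmp19 rose by 2.11 ± 0.26 and the inhibitor gene Timp2 by 1.31 ± 0.12 (0.75 with the offsets).

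Other large rises came from unrelated families. Slc6a2, the noradrenaline transporter, rose by 3.40 ± 0.28, the retinoic acid hydroxylase gene Cyp26b1 by 3.25 ± 0.34, the G-protein subunit gene Gnao1 by 3.08 ± 0.20, the tetraspanin gene Tspan11 by 3.01 ± 0.29 and Ctla2a, a cysteine protease inhibitor, by 2.85 ± 0.33. Antioxidant defence rose in 12 of 24 tested genes and fell in 2, led by the haem oxygenase gene Hmox1, at 8.97 to 12.0 CPM in DTC and at 55.7, 68.2, 58.6, 127 and 40.9 CPM in macro-mets (2.78 ± 0.22, adjusted p = 1.20e-10).

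Most type I interferon genes fell. Of 35 tested members 28 fell and 1, Isg20, rose (median -1.42). With the offsets Isg20 differed by -0.17 and 33 members fell, and without macro-met replicate 3 27 fell. Promoter stretches of 2 of them are shown because they hold the interferon-stimulated response element, searched on both strands and given in capitals. Ifit1 lies at chr19:34640704-34640823 (plus strand) and Oas1a at chr5:120907526-120907639 (minus), both upstream of the start in RefSeq's GRCm38.p6.
Ifit1: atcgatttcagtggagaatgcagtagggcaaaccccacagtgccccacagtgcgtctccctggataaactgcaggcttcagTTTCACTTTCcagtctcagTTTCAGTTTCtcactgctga
Oas1a: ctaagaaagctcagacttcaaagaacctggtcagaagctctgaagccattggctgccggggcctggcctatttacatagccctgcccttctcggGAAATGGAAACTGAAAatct
Each stretch holds 2 matches, overlapping in Oas1a, and 3.85% of the 11767 genes with a promoter entry hold 1 or more. The share among the list is void, since 26 of 35 members had an entry. Ifit1, which binds foreign RNA, stood at 17.3, 10.4, 13.9, 9.75 and 7.18 CPM in DTC and at 1.16, 1.60, 0.489, 0.722 and 2.25 CPM in macro-mets (-3.23 ± 0.40, adjusted p = 1.20e-07). The oligoadenylate synthetase genes Oas2 (-3.50) and Oas1a (-1.34), the RNA sensor gene Ddx58 (-1.63) and Rnf213 (-1.91) fell, each without overlap. With the coding offsets Ddx58 differed by -0.19 (adjusted p = 0.353). Ifit1 and Oas1a belong to families of near copies, so reads may be split between members. The DTC level of most of these genes was low: Oas2 had 2.16 to 6.10 CPM.

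The interferon gamma and MHC class I list divided, with 8 of 34 members higher and 12 lower. The share of rises, 23.5%, is near the background of 21.3%. H2-K1, a classical class I heavy chain, stood at 1046, 980, 601, 922 and 882 CPM in DTC and at 1956, 1862, 2121, 2182 and 1930 CPM in macro-mets (1.18 ± 0.12, adjusted p = 7.84e-09). H2-D1, another heavy chain and a near copy that may share reads with it, rose by 1.26 ± 0.13, and the immunoproteasome subunit genes Psmb8 and Psmb9 by 0.96 ± 0.13 and 1.05 ± 0.18. With the offsets these rises were 0.62, 0.66, 0.46 and 0.48, and each still passed. Irf1, a transcription factor of the same response, differed by -0.32 ± 0.19 (adjusted p = 0.175), by -0.84 with the offsets (adjusted p = 5.28e-04) and by -0.57 without macro-met replicate 3 (adjusted p = 0.0124). The stress ligand gene Ulbp1, which NK cells can recognise, fell by 2.05 on the log2 scale (-1.04 with the offsets).

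Inflammatory genes fell more often than they rose. Of 33 tested NF-kB targets 13 fell and 5 rose, and of 26 chemokine and colony-stimulating factor genes 10 fell and 5 rose. The cytokine gene Tnf stood at 26.9 to 37.7 CPM in DTC and at 4.46 to 11.4 CPM in macro-mets (-1.98 ± 0.33). Ptgs2, which encodes cyclooxygenase 2, fell from 340, 369, 580, 470 and 341 CPM to 57.8, 92.7, 82.5, 73.5 and 55.3 CPM (-2.54 ± 0.37, adjusted p = 2.53e-06). The alarmin gene Il1a (-2.89), the epithelial cytokine gene Tslp (-2.58) and the chemokine gene Cxcl16 (-1.58) also fell, while the adhesion molecule gene Vcam1 rose by 0.98 ± 0.14. With the offsets Ptgs2 changed by -1.51, Tslp by -1.58 and Vcam1 by 2.33. For the NF-kB element, named by its consensus only, 10 of 27 list members with a promoter entry (37.0%) had a match, against 14.4% of the 11767.

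Epithelial junction and keratin genes mostly fell. Of 33 tested junction and keratin genes 19 fell and 2 rose, and 27 fell and 1 rose with the offsets. Krt19 stood at 362, 290, 222, 378 and 434 CPM in DTC and at 100, 99.8, 92.1, 118 and 81.8 CPM in macro-mets (-1.78 ± 0.18, adjusted p = 3.50e-09). The epithelial transcription factor gene Ovol1 (-3.62), the basal keratin gene Krt14 (-2.27) and the desmosome gene Dsp (-2.37) fell further. Replicate 3 was the highest macro-met library for all 3, at 97.5 CPM of Dsp against 20.6 to 39.6 CPM in the others. The adhesion genes Epcam (-1.34), Cdh1 (-1.01) and Cldn7 (-0.71) fell too, and the 2 rises were of Krt6a and Spint2. Krt6a differed by 0.03 without macro-met replicate 3 (adjusted p = 0.986), and Spint2 by 0.10 with the offsets (adjusted p = 0.386). Krt8 and Krt18 differed by 0.04 ± 0.14 and 0.22 ± 0.12 without passing, but with the offsets by -0.59 and -0.38, which passed, so their direction depends on the scaling. Of 21 mesenchymal genes 7 rose and 3 fell: Sparc and Fn1, matrix glycoproteins, rose by 1.01 ± 0.13 and 0.76 ± 0.17, and the intermediate filament gene Vim differed by 0.15 ± 0.20 (adjusted p = 0.579).

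Most genes of mitosis fell. Of 41 tested mitosis genes 28 fell and none rose (median -0.77). Mki67, the proliferation antigen, stood at 199, 262, 275, 245 and 253 CPM in DTC and at 7.41, 9.23, 13.6, 7.22 and 11.2 CPM in macro-mets (-4.66 ± 0.44, adjusted p = 3.86e-09). Cenpe (-5.34) and Cenpf (-4.91), which act at kinetochores, and the spindle genes Aspm (-4.95) and Hmmr (-4.60) fell as far. So did the condensin genes Smc2 (-4.97) and Smc4 (-4.91) and Smc5 (-4.75), and the fall of the topoisomerase gene Top2a (-3.60) was smaller. Other mitotic genes changed far less: Cdc20, the activator of the anaphase-promoting complex, stood at 138 to 199 CPM and 146 to 180 CPM (-0.15 ± 0.19, adjusted p = 0.563), and the cyclin gene Ccnb2 differed by -0.33 ± 0.16 (adjusted p = 0.0907). With GC and length offsets these were -0.74 and -0.62 and passed. Of 38 DNA replication genes 16 fell and 1 rose, and 25 fell and 2 rose with the offsets. The helicase subunit gene Mcm4 fell by 0.86, and Mcm7, a subunit of the same helicase, differed by -0.10 ± 0.10 (adjusted p = 0.449). With the offsets Mcm7 differed by -0.62 and passed. The CDK inhibitor gene Cdkn1a fell by 1.16 (-1.76 with the offsets) and Myc rose by 1.04 ± 0.15 (0.50 with the offsets). The CCAAT box, searched on both strands, occurs in a promoter of 24 of 33 mitosis genes (72.7%) and 19 of 32 replication genes (59.4%) with an entry. The share was 42.0% of the 11767 genes.

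The falls followed the base content of the coding sequence. Over 10020 coding genes with a mean log2 CPM above 2, the log2 fold change ran against the adenine content of the coding sequence (Spearman's rho -0.53 across genes, which share libraries and are not replicates). The median adenine content was 34.6% in the 61 genes that fell by more than 4 on the log2 scale, 29.3% in the 801 genes between -2 and -1, and 22.5% in the 81 genes that rose by more than 2. Coding length followed too, with medians of 4737 and 1305 bases at these ends. In the BALB/c hosts the same rho was -0.04. Coding adenine was 35.8% for Mki67, 37.2% for Cenpe and 35.9% for Cenpf, but 24.5% for Cdc20 and for Mcm7. Falls of the same size were seen outside the cell cycle, in the nuclear pore gene Ranbp2 (-4.44), the chromatin remodeller gene Atrx (-4.42), Tbc1d8b (-4.56) and Slfn9 (-4.50). Libraries differed in the same direction as wholes: the rank correlation of a library's departure from the mean with GC content was -0.59 to -0.31 in DTC and 0.19 to 0.40 in macro-mets.

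**Figure D3:**
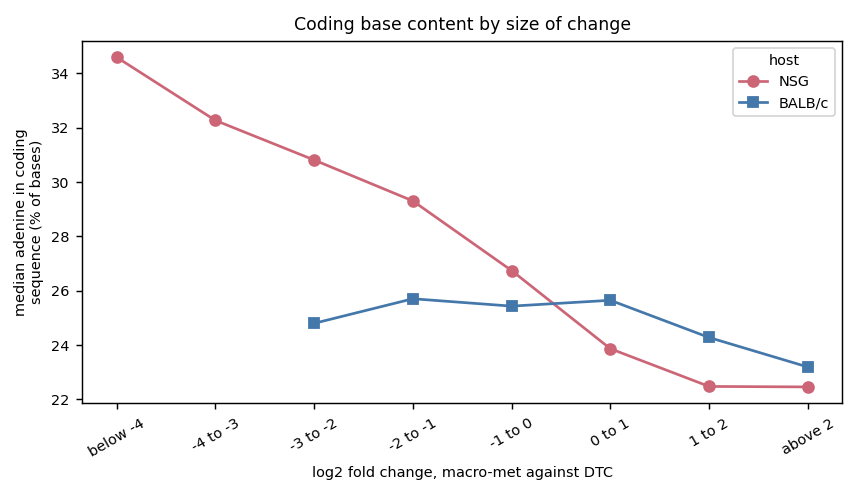
Median adenine content of the coding sequence (% of bases) for genes grouped by log2 fold change between macro-mets and DTC, in NSG and in BALB/c hosts; groups under 20 genes are not drawn. In NSG the median runs from 34.6% among the largest falls to 22.5% among the largest rises, and in BALB/c the drawn medians lie between 23.2% and 25.7%.

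With offsets fitted to the adenine content, GC content and length of the coding sequence, the largest falls shrank. Cenpf became -0.90, Cenpe -1.20, Top2a -0.97, Smc4 -0.92, Atrx -0.45 and Ranbp2 -1.22, while Lbp stayed at 4.86, Ctgf at 3.43, Bnip3 at 3.49, Mmp9 at -3.36 and Krt19 at -2.35. The count for mitosis was 27 lower and 1 higher of 41 (median -0.72). Over all 14212 genes tested with these offsets 3957 were lower and 2631 higher (median -0.10). Mcm4 differed by -0.15 and no longer passed (adjusted p = 0.241). Such offsets also remove a change that genes of like base content share, and the part of base content in the large falls was not tested. The heat shock gene Hsp90aa1 (982 to 1159 CPM in DTC, 74.4 to 151 CPM in macro-mets) and the ER chaperone gene Hsp90b1 changed by -3.15 and -2.51 and, with the coding offsets, by -1.34 and -0.57, while Hspa8 differed by 0.06 ± 0.10 (adjusted p = 0.659), and by 0.41 with the coding offsets (adjusted p = 0.00442). Malat1, an abundant nuclear RNA, changed by -2.54, and by -3.55 without macro-met replicate 3, which held 266 CPM against 41.3 to 48.6 CPM. The imprinted RNA H19 rose by 2.15 ± 0.26.

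The counts of several lists depended on the scaling. Cytosolic ribosomal protein genes had 38 of 53 higher and none lower, but with the GC and length offsets 8 rose and 9 fell. Oxidative phosphorylation had 9 of 37 higher and 1 lower, against 9 and 14, and the BCL2 family 6 of 15 higher and none lower (median 0.38), against 2 and 4 (median -0.12). Of 13 mitochondrially encoded genes none rose and 7 fell, against 4 and 4, and mt-Nd4, a complex I subunit gene, changed by -2.19 and differed by 0.19 with the coding offsets (adjusted p = 0.187).

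**Figure D4:**
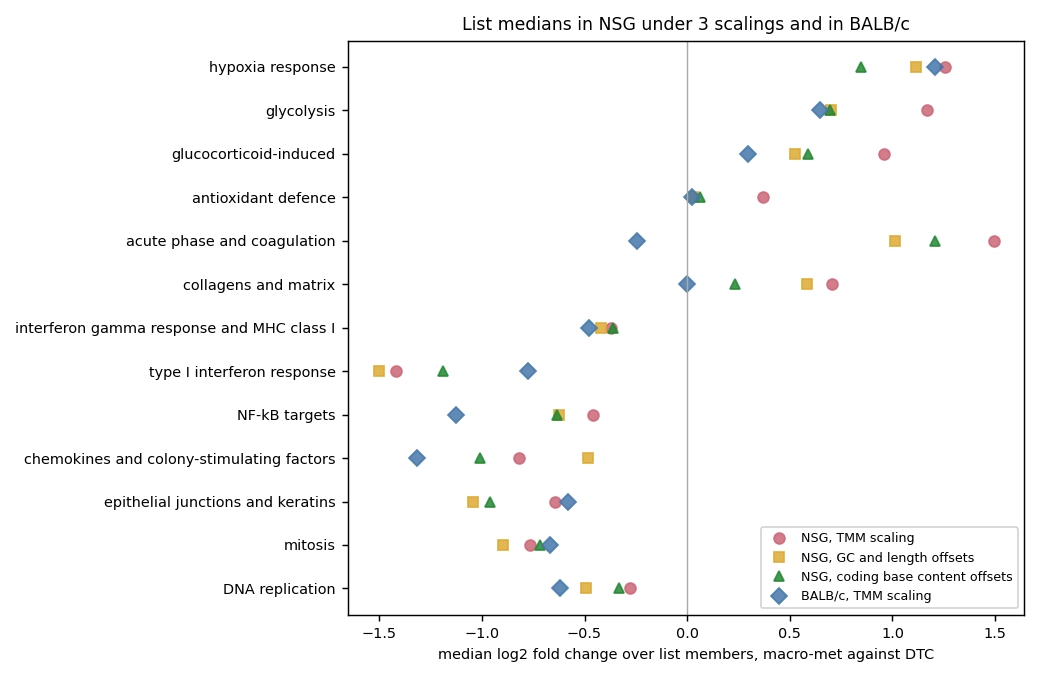
Median log2 fold change of each gene list between macro-mets and DTC: in NSG under TMM scaling, with GC and length offsets and with coding base content offsets, and in BALB/c under TMM scaling. The hypoxia median stays between 0.85 and 1.26 in all 4, and the type I interferon median between -1.50 and -0.77.

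Markers of other cell types that the sorting gate could hold were summed in each library. In sorted bulk RNA, fewer cells of a type and less RNA per cell cannot be told apart. The fibroblast list rose from 204 to 244 CPM in DTC to 451 to 593 CPM in macro-mets (log2 difference 1.20, 2-sided exact permutation test p = 0.00794, the smallest 5 against 5 libraries allow; adjusted p over 13 lists 0.0258). Pdgfra (83.7 to 117 CPM against 172 to 291 CPM), Col1a1 and Dcn (4.54 to 10.4 CPM against 76.7 to 111 CPM) held most of it, and of 13 tested members 4 rose and 1 fell. Col1a1 no longer passed without macro-met replicate 3 (0.89, adjusted p = 0.0715), where the difference of the sums was 1.14, nor with GC and length offsets (0.89, adjusted p = 0.0972) or coding offsets (0.24, adjusted p = 0.673). The smooth muscle and pericyte sum rose by 0.69 with the same p, but of 11 tested members only Pdgfrb (0.965 to 1.83 CPM against 28.5 to 61.2 CPM) rose, and Notch3 fell. The lymphocyte sum was very low (5.26 to 8.67 CPM against 1.60 to 3.73 CPM) and differed by -1.60, with most of it from Trac, and Ms4a1, Ncr1, Klrb1c and Gzmb were at 0 in all 10 libraries. The mesothelium sum fell by 0.73, which is mostly Krt19, a gene of the epithelial list too, while Msln stood at 72.6 to 113 CPM in DTC and at 133 to 169 CPM in macro-mets. The sums of alveolar epithelium (187 to 245 CPM against 181 to 246 CPM) and endothelium (274 to 311 CPM against 250 to 309 CPM) overlapped between groups. The endothelium sum held opposite changes. Eng stood at 94.5 to 123 CPM in DTC and at 175 to 206 CPM in macro-mets, and Flt1 at 82.9 to 101 CPM and 42.8 to 52.5 CPM. Of 17 tested endothelium members 5 fell (29.4%, against 22.4% of all genes) and 1 rose (median -0.67). Airway epithelium, macrophage, neutrophil, red cell, platelet, skeletal muscle and adipocyte sums had adjusted p-values of 0.0516 to 1. Within these lists 6 of 10 tested neutrophil genes rose, at sums of 4.58 to 15.6 CPM against 8.36 to 26.5 CPM. Of 19 macrophage genes 4 rose, a share near the background of 21.3%, and 3 of them were the complement genes C1qa, C1qb and C1qc. The part of fibroblast and mural markers in the matrix rises, and of myeloid markers in the secreted and complement genes, was not tested.

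**Figure D5:**
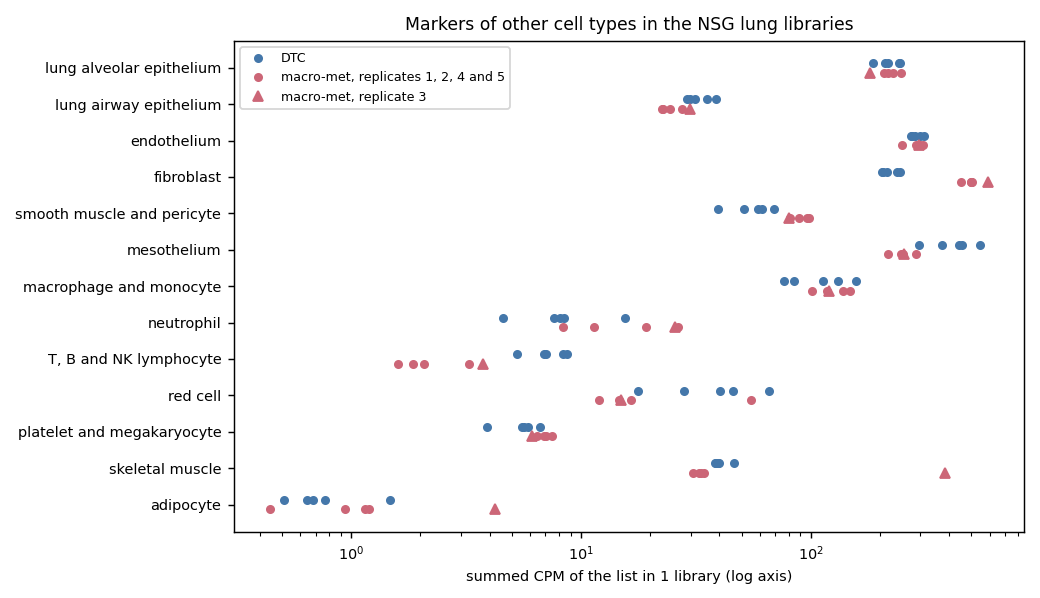
Summed CPM (log axis) of each marker list in the 10 NSG lung libraries, with DTC in blue, macro-mets in red and macro-met replicate 3 as a triangle. The skeletal muscle sum is 382 CPM in replicate 3 and 30.6 to 46.1 CPM in the other 9 libraries.

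The change was set against the same stages in BALB/c hosts (macro-met against DTC, 5 and 5 libraries), which have T, B and NK cells, by an interaction term in the same model. The same line, cell number and vein were used there, with DTC taken on day 7 and macro-mets on day 21 (4 libraries) and day 23 (1). Host and the later day of the macro-mets cannot be told apart. The 2 changes differed for 28.1% of genes, 2060 (11.6%) higher and 2942 (16.6%) lower in NSG. With GC and length offsets 1160 and 2145 genes differed. The change in NSG and in BALB/c was 5.23 and 4.75 for Lbp and 3.57 and 4.00 for Bnip3, with no difference that passed (adjusted p = 0.354 and 0.493). Without macro-met replicate 4, the library highest in Bnip3, its difference was -0.96 (adjusted p = 0.0338). None of the 31 hypoxia genes was higher in NSG and 3 were lower. Fkbp5 rose more in NSG (1.51 against 0.87, difference 0.64 ± 0.17, adjusted p = 0.00514), the difference for Tsc22d3 was 0.57 ± 0.29 (adjusted p = 0.152) and that for Fas -0.35 ± 0.31 (adjusted p = 0.451). The difference for Tsc22d3 passed without BALB/c macro-met replicate 2 (0.76, adjusted p = 0.0422). H2-K1 and H2-D1 rose more in NSG by 0.72 each, but by 0.18 and 0.09 with the offsets, which did not pass.

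The genes with the smallest adjusted p for a difference upward in NSG were Ptp4a3, a phosphatase (0.78 in NSG, -0.42 in BALB/c), the cyclin gene Ccnd3 (0.69 and -0.35), Slc9a3r2 (1.16 and 0.12), Hacd2 (0.64 and -0.35), the interleukin 4 receptor gene Il4ra (2.01 and 0.54) and the thyroid hormone receptor gene Thra (1.17 and 0.23). Lower in NSG were the protease gene Tmprss11e (-4.06 and -0.59), Syne2 (-1.69 and 0.26), Cenpf (-4.91 and -1.08), Brwd1 (-2.24 and -0.47) and Herc1 (-2.29 and 0.17). With the coding offsets the differences for Cenpf, Syne2, Brwd1, Ptp4a3 and Slc9a3r2 no longer passed, and with GC and length offsets those for Slc9a3r2 and Thra did not. Of 41 mitosis genes 17 were lower and 1 higher in this difference, and of 38 DNA replication genes 2 were lower and 12 higher. Both lists fell in both hosts: 32 mitosis and 32 replication genes fell in BALB/c, against 28 and 16 in NSG. Over all genes 14.2% fell and 16.6% rose in BALB/c, against 22.4% and 21.3% in NSG. The replication median was -0.28 in NSG and -0.62 in BALB/c. With GC and length offsets 10 mitosis genes were lower and 1 higher in the difference, and 1 replication gene was lower and 8 higher. Of the marker lists of lung alveolar epithelium and endothelium, 12 of 15 and 14 of 17 genes were lower in BALB/c macro-mets, and 1 of 15 and 5 of 17 in NSG. The difference between hosts passed for 9 of the 15 and 3 of the 17 genes, all higher in NSG, and for 5 and 1 with GC and length offsets. The part of these markers in the differences above was not tested.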

How the data were processed

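The authors deposited raw counts per Ensembl gene, and a second table in TPM, of 30 libraries. Per the submitters' processing notes, Trimmomatic 0.36, STAR 2.5.2b and GRCm38/mm10 were used, and the counting tool, strand setting and annotation release are not given in the sources used here. Of 49315 genes, filterByExpr kept 17774. The counts were scaled by TMM and fitted with 1 mean per group over all 30 libraries by the robust quasi-likelihood test of edgeR 4.0.16 (R 4.3.3), with Benjamini-Hochberg adjustment over all genes and a call under 0.05. SE is the standard error of a log2 fold change. All adjusted p-values of genes come from this test unless another is named. The script was tested on simulated data, where some changes of the smaller simulated size were missed. Reads carry no molecular identifiers, so the spread between libraries sets the precision.

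Lengths, GC and coding base content came from GENCODE M21 (GRCm38), and promoters from RefSeq. Named genes were the 12 largest rises and 12 largest falls with a mean log2 CPM of 3 or more, called also with GC and length offsets, without overlap and outside marker lists. To these came glucocorticoid, Fas and carcinoma genes, members of each list by adjusted p or level, and 6 genes in each direction for the difference from BALB/c. A few genes that this rule names are not reported here. Which of these to print was decided after their values were seen, and so were Isg20, Krt6a and Spint2. The members and lists were chosen with earlier results of these data known. Alternatives were DESeq2 1.42.0, RLE scaling, other filters and sample sets, limma 3.58.1 on log2(TPM + 1), offsets, marker covariates and leaving out each library. The coding offsets, the offsets without macro-met replicate 3, the 20 lung libraries alone and the omission of BALB/c libraries were added after seeing the data.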

Additional observations from a re-analysis of the deposited data

Results flagged for a closer look

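Single libraries lay far from the other 4 of their group in 32 of the 286 groups examined (143 genes in each NSG group). The cut-off used gives about 1 in 20 for independent, normally distributed values. These genes share libraries and were partly picked by their values, so the count is a description and shows no excess over that rate. Macro-met replicate 4 was the high one for the hypoxia and glycolysis genes Bnip3 (162 CPM), Pdk1 (122 CPM), P4ha2 (114 CPM) and Gpi1 (1425 CPM), for Saa3 (46.5 CPM) and for Cdc20 (180 CPM). Macro-met replicate 3 was high for Ddit4 (953 CPM), Malat1 (266 CPM), Col1a1 (164 CPM), Krt14 (108 CPM), Dsp (97.5 CPM), Krt6a (11.9 CPM), Atrx (10.4 CPM), Clock (9.09 CPM) and Ptprc (1.60 CPM). That library also had the high sum of the skeletal muscle list, and the part of its source in these values was not tested. Macro-met replicate 5 was high for Tmprss11e (16.8 CPM) and Slfn9 (4.53 CPM), and replicate 2 for H60b (1.87 CPM).

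Among DTC libraries replicate 3 was low for Ddit4 (140 CPM), Pfkl (112 CPM), Thra (37.0 CPM) and Nectin2 (14.0 CPM) and high for Bmpr1a (162 CPM) and Xiap (122 CPM). It had the lowest rank correlation with GC content of the 10 libraries (-0.59). DTC replicate 1 was high for Oas1a (50.0 CPM), Pgf (16.2 CPM) and Tspan11 (6.44 CPM) and low for Smc5 (64.7 CPM). DTC replicate 2 was high for Malat1 (602 CPM), Syne2 (151 CPM) and Pdgfrb (1.83 CPM), and replicate 5 for Msln (113 CPM).

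The change in NSG differed from that in BALB/c by the interaction test for 14 of the genes named above in the comparison with BALB/c. The log2 difference was 1.20 for Ptp4a3, 1.04 for Ccnd3, 1.05 for Slc9a3r2, 0.99 for Hacd2, 1.47 for Il4ra, 0.94 for Thra, 0.64 for Fkbp5, 0.72 for H2-K1 and 0.72 for H2-D1. It was -3.47 for Tmprss11e, -1.95 for Syne2, -3.83 for Cenpf, -1.77 for Brwd1 and -2.46 for Herc1. Each of the 12 largest falls named, Cenpf among them, passed this test with a larger fall in NSG. They were chosen by their fall in NSG, which is part of the difference, so the choice itself favoured that outcome. Among them the difference was -3.50 for Cenpe, -3.02 for Mki67 and -3.28 for Atrx. With the coding offsets the difference for Cenpf was -0.65 and did not pass (adjusted p = 0.230).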

How the results depend on the processing

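No paired analysis was possible because the labels give no replicate numbers; those used here are in accession order and pair nothing. Leaving out 1 library at a time left 3295 to 3606 genes higher and 3719 to 3944 lower, and title numbers 98 and 35 alone left 2752 and 3313. The count of genes higher in NSG than in BALB/c moved from 2060 to 1160 with GC and length offsets and to 782 with coding offsets (14212 genes tested). An interaction could not be had from the 10 NSG libraries alone, so the 20 lung libraries were used. Direction was compared only for genes called in either of the fits compared. With the coding offsets the direction turned for Fas (0.077), Casp8 (0.31), mt-Nd4 (0.19), Syne2 (0.48), Isg20 (-0.026), Spint2 (-0.0020), Krt8 (-0.47) and Krt18 (-0.27). With GC and length offsets it turned for Krt8 (-0.59), Krt18 (-0.38), Isg20 (-0.17) and Nectin2 (-0.014), and when macro-met replicate 3 was also left out for Krt8 (-0.59), Krt18 (-0.40), Isg20 (-0.10), Nectin2 (-0.012), Per1 (-0.0077) and Krt6a (-0.55). The cause was not tested. Among values of single genes and motifs, each under a single setting, 54 lost and 39 gained a call with the direction kept, and 3491 counted as unchanged. Another 18 turned direction, with a call in either of the fits compared, and 4 motif shares moved. The unchanged values include genes called in neither fit, whose sign could turn, such as Ddit4 (0.54, and -0.095 with GC and length offsets).

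As a mean of log2 CPM in place of a sum, the difference was 0.14 for fibroblast, 0.53 for smooth muscle, 0.57 for mesothelium (turned) and -0.12 for lymphocyte markers, with no call for any of them. For endothelium markers this mean differed by -1.23 (exact permutation test, adjusted p = 0.0516). With 1 library left out the sums differed by 1.14 to 1.24 for fibroblast, 0.57 to 0.77 for smooth muscle, -0.848 to -0.625 for mesothelium, -1.76 to -1.45 for lymphocyte, -0.43 to -0.31 for airway, 0.20 to 0.39 for platelet, -1.32 to -0.71 for red cell and -0.31 to 0.61 for skeletal muscle markers, the last negative without macro-met replicate 3. The adjusted p of the first 4 was 0.0516 without macro-met replicate 1, 2 or 5. Airway markers passed without macro-met replicate 3, platelet markers without it or without DTC replicate 4, and red cell markers without macro-met replicate 4. Skeletal muscle markers passed as a fall without macro-met replicate 3. Genes near or under 1 CPM, such as Oas2 in macro-mets, rest on few counts.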

Other observations

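Clock genes moved in both directions. Of 18 tested members 9 rose and 2 fell (median 0.85, against 0.02 over all genes), and 6 rose and 3 fell with GC and length offsets. The repressor genes Bhlhe41 (1.62) and Cry2 (1.35) rose, and the activator gene Clock (-3.38) and the repressor gene Nr1d2 (-1.44) fell. The hours at which the lungs were taken are not given in the labels, and their part was not tested. Of 19 angiogenic ligands and receptors 10 rose and 2 fell. The growth factor genes Pdgfa and Pgf rose by 1.21 and 1.44, and by 0.72 and 0.78 with the offsets, while Vegfa, a textbook hypoxia target, differed by -0.29 (adjusted p = 0.154), and by -0.70 with the offsets, which passed.

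Of 26 tested TGF-beta and BMP genes 7 rose and 5 fell, shares near the background of 21.3% and 22.4%: the ligand genes Bmp7 (2.17) and Inhbb (1.65) rose, and the receptor genes Bmpr2 (-2.16) and Bmpr1a (-1.59) and the repressor gene Skil (-2.78) fell. With the offsets these falls were -0.49, -0.61 and -1.49, and 6 genes of the list rose and 9 fell. Of 26 Wnt genes 9 rose and 4 fell, with the secreted antagonist gene Sfrp1 at 1.02 and the ligand gene Wnt10a at -1.29. Of 19 YAP and TEAD targets 8 rose and 2 fell, and Cyr61, the close relative of Ctgf, differed by -0.21 (adjusted p = 0.466), and by -0.71 with the offsets (adjusted p = 0.00831). Of 15 tested checkpoint and NK ligand genes 3 rose and 3 fell, again near the background. The rises were of Vsir, Lgals9 and Nectin2. With GC and length offsets Lgals9 differed by 0.22 (adjusted p = 0.109) and Nectin2 by -0.014, and with coding offsets Vsir by 0.37 (adjusted p = 0.0505). The falls were of Ulbp1, H60b and Pvr, and Pvr (-0.38) did not pass without DTC replicate 4 (-0.30, adjusted p = 0.0781), between title numbers 98 and 35 alone, without the filter on low counts or with marker covariates.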
